A study of Mus musculus with 10 samples.

Results

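The endoplasmic reticulum (ER) stress response genes examined here were Hspa5, Hsp90b1, Calr, Dnajb9, Sdf2l1, Pdia4, Creld2, Herpud1, Atf4 and Ddit3. They were taken by symbol, and all 10 were found among the 17279 genes of the table. RNA sequencing was performed on macrophages that were sorted by flow cytometry as CX3CR1-GFP+ cells from the lamina propria of the whole small intestine of mice, with the genotype given as C57BL6/J and the reporter allele not given. Macrophages were collected 24 h after sham surgery (n = 5) or permanent middle cerebral artery occlusion (pMCAO, a model of stroke without reperfusion; n = 5). Replicate 1 of each group was a pool by its library name, and the labels call the 5 libraries of a group biological replicates. Total counts per library ranged from 18894151 to 60665972 after sham surgery (median 33913980) and from 6430643 to 28672285 after pMCAO (median 11605371), so low counts were less precise after pMCAO. Sham replicate 5 and pMCAO replicate 4 stood apart by high counts of Xist, the RNA that silences an X chromosome in female cells.

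Proteins that enter the ER fold there with the help of chaperones and disulfide isomerases, and misfolded proteins activate the unfolded protein response (UPR). Its sensors IRE1, PERK and ATF6 act through the transcription factors XBP1, ATF4 and cleaved ATF6, which raise the folding and degradation machinery, while prolonged PERK signalling induces CHOP, the product of Ddit3. Plasma cells, which are abundant in the intestinal lamina propria and secrete immunoglobulin, express this machinery strongly under XBP1 even without injury. The level of each gene was therefore also set against the share of immunoglobulin transcripts in its library.

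Promoter sequence is shown because ER chaperone genes are known to share the ER stress response element (ERSE), which ATF6 binds together with NF-Y. RefSeq promoter windows, from 250 bases before to 50 bases after each gene's RefSeq start, were found for all 10 genes. The ERSE, searched as CCAAT, 9 bases of any kind and CCACG on both strands, was present in the windows of 4 of the 10 genes and in 0.119% of 32851 windows of the same length. The ERSE-II, searched as ATTGG, 1 base of any kind and CCACG, was in the window of Herpud1 alone among the 10 genes and in 0.0365% of all windows. No match of the genes overlapped another match. The stretches around these matches are given 5′ to 3′ on the strand of each gene, from RefSeq on GRCm38.p6, with the fixed letters of the element in capitals. Bases within the gene's own GENCODE span were left out, except for Hspa5, whose match lies in an annotated exon and is shown with 5 bases on each side.
Hspa5 (chr2:34772020-34772048, plus strand): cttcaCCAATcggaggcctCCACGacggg
Hsp90b1 (chr10:86705510-86705694, minus strand): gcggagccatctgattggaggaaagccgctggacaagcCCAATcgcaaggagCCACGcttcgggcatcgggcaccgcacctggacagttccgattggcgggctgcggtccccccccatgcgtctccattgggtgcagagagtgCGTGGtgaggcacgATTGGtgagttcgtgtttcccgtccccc
Creld2 (chr15:88819396-88819645, plus strand): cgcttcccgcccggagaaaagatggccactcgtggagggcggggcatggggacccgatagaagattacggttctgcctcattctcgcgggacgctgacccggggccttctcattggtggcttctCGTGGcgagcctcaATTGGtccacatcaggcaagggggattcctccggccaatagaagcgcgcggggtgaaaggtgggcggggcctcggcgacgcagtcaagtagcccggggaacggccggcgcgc
Calr (chr8:84846935-84847181, minus strand): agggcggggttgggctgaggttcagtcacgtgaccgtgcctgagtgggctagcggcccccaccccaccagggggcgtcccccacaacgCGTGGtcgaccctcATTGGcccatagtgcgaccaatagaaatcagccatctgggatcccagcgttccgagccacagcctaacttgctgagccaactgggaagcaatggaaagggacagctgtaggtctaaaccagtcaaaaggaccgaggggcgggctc
Herpud1 (chr8:94386179-94386428, plus strand): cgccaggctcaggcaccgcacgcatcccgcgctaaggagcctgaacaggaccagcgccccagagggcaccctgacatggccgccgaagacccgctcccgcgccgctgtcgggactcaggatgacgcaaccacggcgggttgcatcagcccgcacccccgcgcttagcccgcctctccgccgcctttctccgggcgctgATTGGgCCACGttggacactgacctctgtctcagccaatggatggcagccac
The ERSE of Hspa5 began 65 bases before the RefSeq start. Hsp90b1 held the element on its own strand from 212 bases and on the opposite strand from 107 bases before the start. Creld2 (126 bases) and Calr (162 bases) held it on the opposite strand, where the printed strand reads CGTGG first and ATTGG last. The XBP1-type element TGACGTGG was in 0.676% of all windows and in 0 of the 10 genes, and the ATF4-type element TGATGNAA, in 3.97% of all windows, matched Herpud1 on the opposite strand. Such a match describes the letters of the window, and a missing match says only that these letters are not in it.

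All 10 genes were detected in every library, and the lowest count was 61 (Ddit3). Per kilobase of exon, Hsp90b1 was highest at 344 ± 186 CPM (read counts scaled to library size with TMM factors, SD over 10 libraries), followed by Hspa5 at 252.4 ± 76.6 CPM. Calr (87.6 ± 30.8 CPM per kilobase) and Herpud1 (81.5 ± 20.5 CPM per kilobase) came next. Dnajb9 (58.7 ± 10.03), Sdf2l1 (52.9 ± 24.0), Pdia4 (51.1 ± 31.3) and Atf4 (51.0 ± 11.4 CPM per kilobase) lay within each other's spread, and Creld2 (36.9 ± 21.4 CPM per kilobase) was below them, with a spread that overlapped theirs. Ddit3, which encodes the pro-apoptotic factor CHOP, was lowest at 5.58 ± 1.41 CPM per kilobase.

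No gene of the ER stress response was called between pMCAO and sham. With edgeR's quasi-likelihood test, 0 of the 10 genes had an adjusted p of at most 0.05, as had 0 of 16949 genes tested (0%, smallest adjusted p = 0.922). DESeq2 called 3 genes in all and limma-voom 0, and 0 of the 10 genes were called with either. With edgeR, 799 genes were under an unadjusted p of 0.05. Among the 10 genes, Calr and Atf4 were under this limit, both with lower values after pMCAO, against 2.45% of all genes under it with lower values. The groups overlapped in each of the 10 genes, while 0.537% of all genes were lower and 0.448% higher after pMCAO without overlap. The fold change was below 0 in 6 genes and above 0 in 4, and its median was −0.07 on the log2 scale against −0.0059 over all genes. In bulk libraries, fewer cells of a type and less RNA per cell cannot be told apart.

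**Figure D1:**
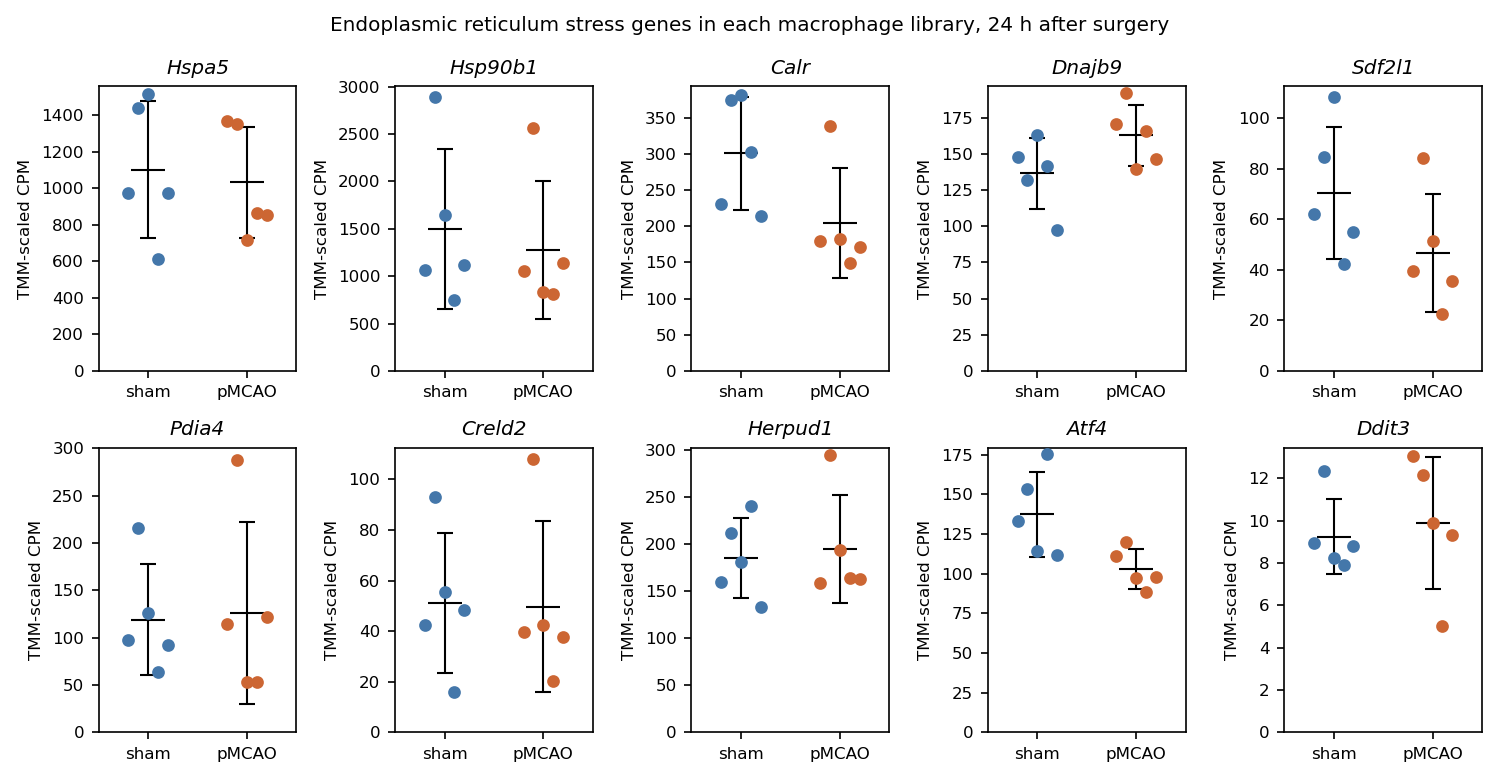
TMM-scaled CPM of the 10 genes in each library (points), by group, with the mean and SD (black; n = 5 per group). The groups overlap in every panel. Replicate 2 of each group is the highest of its group for Hsp90b1, Pdia4 and Creld2, and 4 of 5 pMCAO libraries lie below all sham libraries for Calr and Atf4.

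Of the chaperones, Hspa5 encodes BiP, which binds nascent chains and holds the UPR sensors inactive. Its level was 972, 1440, 1515, 613 and 972 CPM in sham replicates 1 to 5, and 1371, 1351, 717, 867 and 855 CPM in pMCAO replicates 1 to 5. Both groups covered much the same range, and the means were 1103 ± 373 CPM after sham and 1032 ± 306 CPM after pMCAO (SD, n = 5; log2 fold change −0.09, SE 0.28). Hsp90b1, the ER member of the HSP90 family, was at 1070, 2889, 1644, 745 and 1121 CPM in sham and 1058, 2559, 830, 814 and 1138 CPM in pMCAO replicates 1 to 5. Replicate 2 of each group stood above the rest, and the log2 fold change of −0.22 (SE 0.40) was within the spread.

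Calr encodes calreticulin, a calcium-binding lectin that folds glycoproteins. It was at 231, 375, 381, 303 and 214 CPM in sham replicates 1 to 5 and at 180, 338, 182, 149 and 171 CPM in pMCAO replicates 1 to 5. In 4 of 5 pMCAO libraries it was below the lowest sham library, while pMCAO replicate 2 lay within the sham range. The mean was 301 ± 78.1 CPM after sham and 204 ± 76.0 CPM after pMCAO, a log2 fold change of −0.56 (SE 0.25, 95% interval −1.11 to −0.01), which was not called (adjusted p = 0.922). Calr stayed under an unadjusted p of 0.05 in 3 of the 10 fits that each left out a library, and its log2 fold change in those fits ranged from −0.82 to −0.46.

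The cochaperones of BiP were not called between the groups either. Dnajb9, an ERdj protein that recruits BiP to IRE1, was at 148, 132, 163, 141 and 97.5 CPM in sham and at 170, 192, 139, 165 and 146 CPM in pMCAO replicates 1 to 5. All 5 pMCAO libraries were above the sham mean and 3 were above the highest sham library, with a log2 fold change of 0.25 (SE 0.16, adjusted p = 0.922). Sdf2l1, which works with ERdj proteins, was at 62.0, 84.8, 109, 42.2 and 55.1 CPM in sham and at 39.7, 84.3, 51.6, 22.6 and 35.7 CPM in pMCAO replicates 1 to 5. It was below the lowest sham library in 3 pMCAO libraries, and the log2 fold change was −0.59 (SE 0.34, adjusted p = 0.922).

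Pdia4, a protein disulfide isomerase, was at 97.5, 216, 126, 63.5 and 91.9 CPM in sham and at 114, 288, 53.2, 53.1 and 122 CPM in pMCAO replicates 1 to 5. Its levels spanned 5.43-fold over the libraries, and the spread was wide in both groups. The log2 fold change was 0.086 (SE 0.46). Creld2, an ER-resident protein with disulfide isomerase activity, was at 42.6, 93.2, 55.5, 16.2 and 48.5 CPM in sham and at 39.6, 108, 42.5, 20.3 and 37.7 CPM in pMCAO replicates 1 to 5. It had the widest range of the 10 genes (6.68-fold), again with replicate 2 highest in each group, and a log2 fold change of −0.04 (SE 0.46).

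Herpud1 organises the complex that degrades misfolded ER proteins. It was at 160, 212, 181, 241 and 133 CPM in sham and at 159, 295, 194, 165 and 163 CPM in pMCAO replicates 1 to 5, with a log2 fold change of 0.07 (SE 0.22). Sham replicate 4, the lowest sham library for both HSP chaperones, was the highest sham library for Herpud1.

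Of the transcription factors, Atf4, the effector of PERK and of the integrated stress response, was at 133, 153, 115, 175 and 112 CPM in sham and at 111, 120, 97.5, 88.4 and 98.0 CPM in pMCAO replicates 1 to 5. All 5 pMCAO libraries were below the sham mean and 4 were below every sham library. The mean was 137 ± 26.8 CPM after sham and 103 ± 12.4 CPM after pMCAO, a log2 fold change of −0.42 (SE 0.16, 95% interval −0.77 to −0.06) that was not called (adjusted p = 0.922). Over fits that each left out a library it ranged from −0.49 to −0.33, and Atf4 stayed under an unadjusted p of 0.05 in 6 of 10. ATF4 is controlled largely through translation, which these libraries do not measure. Ddit3 was at 8.94, 12.3, 8.21, 7.93 and 8.82 CPM in sham and at 13.05, 12.1, 9.90, 5.00 and 9.32 CPM in pMCAO replicates 1 to 5, with overlapping groups and a log2 fold change of 0.09 (SE 0.29).

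The pathway around these genes gave 0 calls between the groups, and 0 genes of the other lists were under an unadjusted p of 0.05. The smallest unadjusted p values among the 8 UPR sensors and transducers belonged to Ern1, which encodes IRE1 (log2 fold change 0.27, SE 0.15), and Atf6 (0.34, SE 0.24). Among 18 other ER chaperones and folding enzymes they belonged to the isomerases Pdia3 (−0.46, SE 0.23) and Pdia6 (−0.40, SE 0.21), and among 14 genes of ER-associated degradation to Derl1 (0.23, SE 0.15) and Sel1l (0.26, SE 0.26). Of the ATF4 and CHOP targets, 14 of 16 were in the table, and Ddit4 (1.05, SE 0.54) and Psat1 (−0.59, SE 0.34) came first. Sec11a (−0.24, SE 0.16) and Ssr1 (0.26, SE 0.18) came first among 17 genes of the translocon, signal peptidase and ER export, and Hspe1 (−0.42, SE 0.22) and Hsp90ab1 (−0.33, SE 0.20) among 9 cytosolic and mitochondrial chaperones. All these genes had adjusted p values of 0.922 or above.

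The immunoglobulin share, the percentage of counts in 179 heavy and light chain genes, was 4.61, 14.1, 5.56, 0.524 and 4.13% in sham and 5.41, 16.7, 0.847, 0.781 and 4.72% in pMCAO replicates 1 to 5. Replicate 2 was highest in both groups, and 3 libraries (sham replicate 4 and pMCAO replicates 3 and 4) were under 1%. The groups did not separate by this share (log2 difference −0.29, two-sided exact permutation p = 0.873). All 15 macrophage markers were present in every library, as were all 10 absorptive epithelial markers, so presence alone cannot check the sort. The summed level of the macrophage markers was between 14761 and 25154 CPM before TMM scaling. Lyz2, the most abundant of them, ranged from 4575 to 9826 TMM-scaled CPM. Plasma cell transcripts were also present, and Jchain, which encodes the joining chain of secreted immunoglobulin, ranged from 738 to 26771 TMM-scaled CPM.

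Across the libraries, 4 of the 10 genes rose with the immunoglobulin share and none fell. In an edgeR fit with the group as a term and the immunoglobulin genes removed, a positive slope was called for 1.98% of 16764 genes and a negative slope for 1.92%. The slope, the log2 change in level for each doubling of the share, was 0.44 for Pdia4 (SE 0.055, adjusted p = 0.0012). It was 0.43 for Creld2 (SE 0.075, adjusted p = 0.00875) and 0.36 for Hsp90b1 (SE 0.062, adjusted p = 0.00875). Hspa5 had a slope of 0.23 (SE 0.057, adjusted p = 0.0449). A doubling of the share thus went with a 1.36-fold higher level of Pdia4 and a 1.17-fold higher level of Hspa5. Sdf2l1 (0.24, SE 0.078), Ddit3 (0.15, SE 0.082) and Calr (0.13, SE 0.061) were not called, nor were Dnajb9 (0.034, SE 0.048), Herpud1 (0.033, SE 0.059) and Atf4 (0.0095, SE 0.047). The median slope of the 10 genes was 0.19 against 0.0056 over all genes, 51.3% of which had a positive slope.

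**Figure D2:**
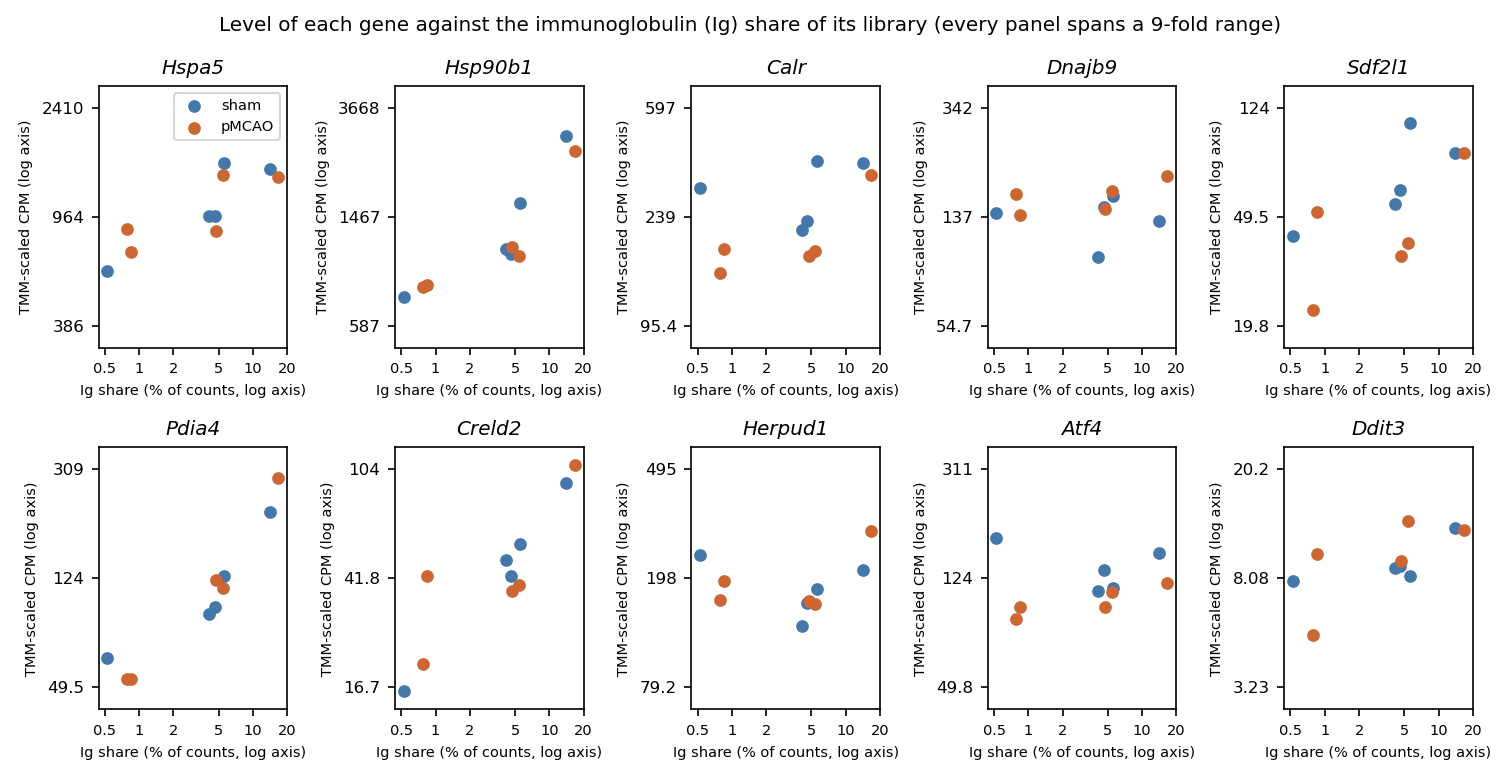
TMM-scaled CPM of each gene (log axis, 9-fold range in every panel) against the immunoglobulin share of the library in percent (log axis), with sham libraries in blue and pMCAO libraries in orange. Pdia4, Hsp90b1 and Creld2 climb with the share in both groups, while Atf4, Herpud1 and Dnajb9 show no such course.

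These calls depended on which libraries and terms were fitted. Without replicate 2 of both groups, 0 of the 10 genes and 26 genes in all were called, and the slopes were 0.33 for Pdia4, 0.32 for Creld2, 0.21 for Hsp90b1 and 0.25 for Hspa5. Leaving out sham replicate 4 or pMCAO replicate 2 alone kept Pdia4 as the only called gene of the 10, and without the 3 libraries under 1% Hsp90b1, Pdia4 and Creld2 were still called. Their slopes in that fit were steeper, at 0.74, 0.71 and 0.72. Hspa5 lost its call without sham replicate 1, 2, 3 or 4, or pMCAO replicate 1, 2 or 3, with slopes between 0.19 and 0.25. Ribosomal RNA was counted as the mitochondrial mt-Rnr1 and mt-Rnr2 together with Rn18s-rs5. It took 22.4% of counts in sham replicate 4, 21.6% in pMCAO replicate 3 and 11.7% in pMCAO replicate 4, the libraries under 1%. In the other libraries it took 2.91 to 13.2%. With the log2 ribosomal share added as a term, 1 of the 10 genes was called (Pdia4, slope 0.48, adjusted p = 0.0334) and 45 in all, and the slopes of Creld2 (0.46), Hsp90b1 (0.40) and Hspa5 (0.25) were not smaller. With the replicate number as a block, 0 of the 10 genes and 30 in all were called. The slopes were then 0.45 for Pdia4, 0.43 for Hspa5, 0.33 for Hsp90b1 and 0.15 for Creld2. Adjusted p values of Pdia4 over its alternatives ranged from 6.78e-10 with DESeq2 to 0.178 with this block.

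The slopes did not differ detectably between sham and pMCAO. A difference of slopes was called for 0 of the 10 genes and 0% of 16764 genes, and at an unadjusted p under 0.05 for 0 of the 10 against 4.9% of all genes. Pdia4 had a slope of 0.35 in sham (SE 0.075) and 0.53 in pMCAO (SE 0.069). The slopes of Creld2 were 0.53 (SE 0.12) and 0.36 (SE 0.093), and those of Hsp90b1 0.39 (SE 0.098) and 0.33 (SE 0.087).

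With the immunoglobulin share as a covariate, 0 genes were called between the groups (smallest adjusted p = 0.717), and 1037 were at an unadjusted p under 0.05. The log2 fold changes of Calr (−0.56, SE 0.22) and Atf4 (−0.42, SE 0.16) were close to those without it, and their adjusted p was 0.797. Sdf2l1 was at −0.54 (SE 0.27) and Dnajb9 at 0.26 (SE 0.16). The standard error of Pdia4 went from 0.46 to 0.19 and that of Creld2 from 0.46 to 0.25, with log2 fold changes of 0.029 and 0.13. The difference of Pdia4 was then between −0.38 and 0.43, and that of Hspa5 between −0.39 and 0.39 (95% intervals).

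**Figure D3:**
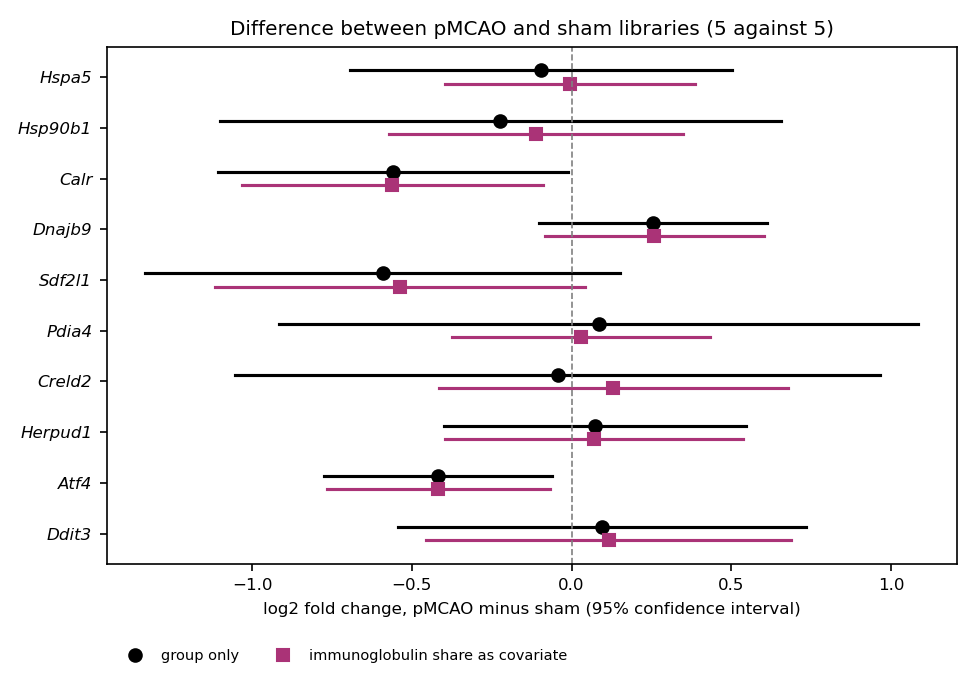
Log2 fold change of each gene, pMCAO minus sham, with its 95% confidence interval (5 against 5 libraries), without (black) and with (purple) the immunoglobulin share as a covariate. The intervals of Pdia4, Creld2 and Hsp90b1 are narrower with the covariate, and those of Calr and Atf4 lie below 0 in both fits, although neither gene was called.

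Other genes of the secretory machinery rose with the immunoglobulin share, where a positive slope was called for 1.98% of all genes. The list counts given here and below are from the fit with all 10 libraries, and whether they hold in the alternatives was not tested. Over all genes, calls fell from 654 to 26 without replicate 2 of both groups. Of 8 sensors and transducers, 1 was called, Xbp1 (slope 0.47, SE 0.063, adjusted p = 0.00229), and Atf6 was not (0.18, SE 0.050). Of 18 other chaperones and folding enzymes, 5 rose and 0 fell, among them the isomerase Txndc5 (0.72, SE 0.058) and the BiP exchange factor Hyou1 (0.37, SE 0.049). Of 14 degradation genes, 5 rose and 0 fell, led by Derl3 (0.81, SE 0.054) and Edem1 (0.39, SE 0.048), which act on misfolded glycoproteins. Of 17 translocon, signal peptidase and export genes, 8 rose and 0 fell, with Sec61a1 at 0.31 (SE 0.043), Spcs3 at 0.26 (SE 0.038) and a median of 0.23.

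The targets of ATF4 and CHOP had a median slope of 0.027, and 2 of 14 were called. These were Phgdh (1.01, SE 0.16) and Asns (0.75, SE 0.14), enzymes of serine and asparagine synthesis. In contrast, the cytosolic and mitochondrial chaperones had 0 of 9 rising and 3 falling, where a negative slope was called for 1.92% of all genes. The heat-inducible Hspa1b (−0.84, SE 0.17) and Hspa1a (−0.67, SE 0.15) fell with the share, as did Hsp90aa1 (−0.24, SE 0.051). Hspa1b reached 1463 CPM in sham replicate 4 and, with 1231 CPM, was also high in pMCAO replicate 3. These were the libraries richest in ribosomal RNA, and the level was 29.8 to 194 CPM elsewhere.

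Of 10 plasma cell markers, 8 rose with the share (median slope 0.81), with Jchain at 1.04 (SE 0.070). The slopes of Pdia4, Creld2, Hsp90b1 and Hspa5 were smaller than this median. Of 15 macrophage markers, 2 fell, against 1.92% of all genes. These were Cd163 (−0.50, SE 0.11) and Mertk (−0.27, SE 0.064), and the median of the macrophage markers was −0.14. None of 12 secretory and 10 absorptive epithelial markers was called, and their summed levels ranged from 343 to 4196 CPM and from 157 to 1370 CPM before TMM scaling. The part of plasma cell RNA in the levels of the ER stress genes was not tested.

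**Figure D4:**
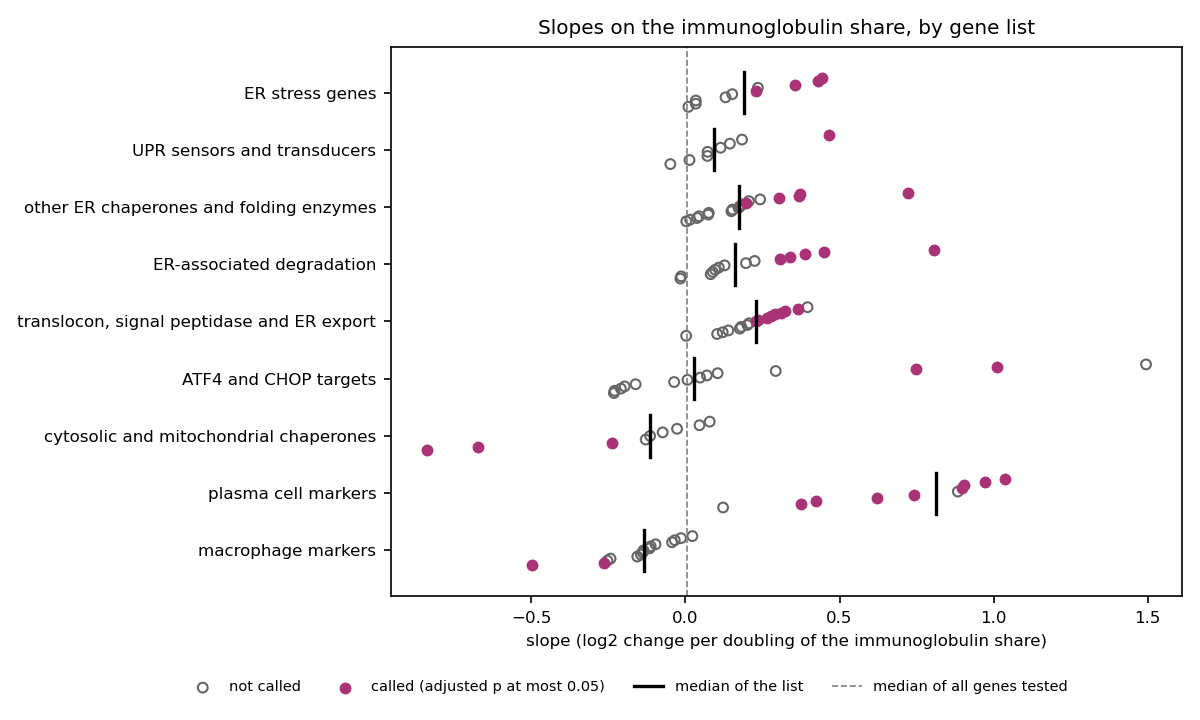
Slope of each gene on the immunoglobulin share (log2 change per doubling), by gene list, with called genes filled and list medians as black bars. The dashed line is the median over all genes tested (0.0056). The ER stress genes have a median of 0.19, the plasma cell markers of 0.81 and the macrophage markers of −0.14.

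By level across the 10 libraries, Hsp90b1 followed Pdia4 (Pearson's r = 0.94) and Creld2 (r = 0.90), and Calr followed Sdf2l1 (r = 0.86), while Atf4 and Hspa5 had an r of 0.012. Outside the 10 genes and the immunoglobulin genes, the gene most like Pdia4 was Txndc5 (r = 0.99), and the gene most like Hsp90b1 was Srp72 (r = 0.98), a subunit of the signal recognition particle. Creld2 was most like Trabd (r = 0.99), Herpud1 most like the transcription factor gene Atf5 (r = 0.97) and Sdf2l1 most like the peroxiredoxin gene Prdx1 (r = 0.96). The closest genes to Calr, Hspa5, Atf4, Ddit3 and Dnajb9 were Mrpl21 (r = 0.95), Gm13140 (r = 0.94), Utp11l (r = 0.94), Bpgm (r = 0.94) and Leprot (r = 0.92). These are descriptions over libraries that differ in depth and in immunoglobulin share, and each closest gene was chosen as the highest of many values.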

How the data were processed

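Libraries were prepared from rRNA-depleted total RNA and sequenced as pairs. Per the labels' processing notes, the authors used STAR, featureCounts and limma with GRCm38 (mm10), and the version, annotation and strand setting are not given in the sources used here. The deposited table holds whole-number counts per gene, not normalized. Its CPM columns, fold change, mean expression, p and FDR of the authors were not used. Counts were filtered with filterByExpr, scaled by TMM and fitted with edgeR 4.0.16 (quasi-likelihood, Benjamini-Hochberg over all genes, R 4.3.3). A gene was called at an adjusted p of at most 0.05. The slope fit added the log2 immunoglobulin share to the group. Standard errors were the absolute log2 value over the square root of F. DESeq2 1.42.0, limma-voom (limma 3.58.1), other filters and scalings, covariates and left-out libraries were alternatives.

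The 10 genes and the gene lists were chosen with earlier results of these data known. All 10 genes are named. From each other pathway list, the text names the 2 genes with the smallest unadjusted p for the group and the 2 for the slope, and the most abundant gene of a marker list is the example. Hsp90aa1, Cd163 and Mertk were chosen after their values were seen. For each of the 10 genes, the gene with the highest Pearson's r is named. Exon lengths (GENCODE M21) were found for 17193 of 17279 genes. In all 45 pairs of libraries the counts differed beyond sampling noise (lowest chi-square divided by its degrees of freedom 42.7), and p-values measure the spread between these libraries.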

Additional observations from a re-analysis of the deposited data

Results flagged for a closer look

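A library stood apart from its group in 2 of 20 groups of 5 libraries, by a gap to the nearest library of over 0.71 of the group's range on the log2 scale, where chance gives about 1 in 20. Calr was high in pMCAO replicate 2 (gap 0.756 of the range), the library with the highest immunoglobulin share, and without it the log2 fold change of Calr was −0.82. Ddit3 was high in sham replicate 2 (0.728), the sham library with the highest share. Whether the share plays a part in either value was not tested.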

How the results depend on the processing

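Over 20 alternatives for the group, 0 of the 10 genes were called in each, and DESeq2 called 3 genes in all, Rbp7 and Tppp3 among them, where edgeR called 0. Genes of the 10 under an unadjusted p of 0.05 numbered 2, where 799 of all genes were under it. They numbered 1 without the pooled libraries (462 of all genes) and 1 without the 2 libraries with high Xist (581). With a library left out they numbered 0 to 3 (575 to 1268 of all genes). Calr, Atf4, Sdf2l1 and Dnajb9 kept their direction in all 20. The others turned in some: Hspa5 (leave-one-out −0.26 to 0.046), Hsp90b1 (−0.64 to 0.16), Pdia4 (−0.48 to 0.41, and −0.039 with limma-voom), Creld2 (−0.55 to 0.29, 0.13 with the share as covariate and 0.13 without the high-Xist libraries), Herpud1 (−0.13 to 0.17) and Ddit3 (−0.024 to 0.25, and −0.034 without the pools). The labels do not say that a replicate number marks a shared batch, and libraries with the same number did not all deviate together (correlation −0.0055 to 0.372 over 5 pairs, 3 over 0.1, and 2 whose own partner was the best for both libraries), so the numbers were not taken as pairs. With the replicate number as a block, the log2 fold change of Pdia4 was −0.078, and the slope was called in 0 of the 10 genes and 30 in all. With this block the slope was 0.45 for Pdia4, 0.43 for Hspa5, 0.33 for Hsp90b1, 0.15 for Creld2, −0.040 for Herpud1, −0.093 for Atf4 and −0.12 for Ddit3. The slope was called in 654 genes, in 1902 with DESeq2 (5 of the 10), 393 without the pools, 117 to 923 with a library left out (1 to 4 of the 10). Alternatives added after seeing the data gave 26 genes and 0 of the 10 without replicate 2 of both groups, 57 without the libraries under 1%, and 45 and 1 of the 10 with the ribosomal term. Slopes turned for Herpud1 (−0.12 without both replicates 2, leave-one-out −0.058 to 0.14) and Atf4 (−0.058 without both replicates 2, −0.012 without the high-Xist libraries, leave-one-out −0.020 to 0.099). The share differed by −0.29 on the log2 scale, by 0.23 without the high-Xist libraries, and by −1.01 to 0.20 with a library left out. The cause of these changes was not tested. Depth limits Ddit3 most.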

Other observations

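Before TMM scaling, Xist ranged from 1.27 to 4.88 CPM in 8 libraries. It was 2237 CPM for sham replicate 5 and 4686 CPM for pMCAO replicate 4. The labels used here give no sex, and whether these 2 libraries hold cells of female origin was not tested. Sham replicate 5 had the lowest Dnajb9, Calr, Herpud1 and Atf4 of the sham group, and pMCAO replicate 4 the lowest Hsp90b1, Pdia4, Sdf2l1, Creld2, Calr, Atf4 and Ddit3 of the pMCAO group. Without both libraries the log2 fold change of Atf4 was −0.44 and that of Calr −0.57.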
